A study of Homo sapiens with 6 samples.

Results

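The 10 genes described here encode the proteins that copy, transcribe and stabilise the genome of the mitochondrion, together with the nuclear regulators that set how much of this machinery a cell makes. They were chosen by name (TFAM, TFB1M, TFB2M, POLRMT, POLG, POLG2, LRPPRC, NRF1, PPARGC1A and PPARGC1B), and all 10 were found among the 29436 gene symbols of the count table. The cells were hemogenic endothelium, the endothelial cells that give rise to blood. They were differentiated on AGM-S3 stroma from the established human embryonic line H1. In 3 libraries (ALA) the inducing medium held alpha lipoic acid at 100 µg/ml, and in 3 libraries (Ctrl) it held none. Lipoic acid scavenges oxidants and also serves, once attached to enzymes, as a cofactor of mitochondrial dehydrogenases. Cells of both groups were sorted on day 8 as CD34+CD43-KDR+CD144+, and amplified polyA cDNA of 1000 cells was sequenced for each library. All cells came from this 1 line, and the labels do not say whether replicates were separate cultures, so the p values reflect variation among these libraries, some or all of which may be technical. The study was designed to learn how lipoic acid promotes blood progenitor output, and the comparison asks which of these transcripts differ at the hemogenic endothelial stage.

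The mitochondrial genome is transcribed by a polymerase of its own, POLRMT, which starts at the promoters with the packaging protein TFAM and the melting factor TFB2M. It is copied by DNA polymerase gamma, made of the catalytic subunit POLG and the processivity subunit POLG2. All of these proteins are encoded in the nucleus, where NRF1 binds many of their promoters and the coactivators PPARGC1A and PPARGC1B (PGC-1alpha and PGC-1beta) raise the activity of such factors.

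Total counts lay between 30041494 and 41351951 per library. Even numbers made up 99.13% to 99.34% of the nonzero counts in 4 libraries (all 3 ALA libraries and Ctrl replicate 1) but 52.01% and 51.97% in Ctrl replicates 2 and 3, so in those 4 libraries a count may not equal 1 independent read. Values from the 4 libraries of even counts alone are given beside those of the 10 genes, of their named nuclear partners and of the mitochondrial transcripts whose call or direction was different there, or whose log2 fold change moved by over 1.5 times. In those fits Ctrl replicate 1 is the sole untreated library and its variance is taken from the ALA libraries. Summed levels of 10 endothelial markers were 10218 to 10548 CPM (counts scaled to a common library size) in ALA libraries. In Ctrl libraries they were 11787 to 11853 CPM. CD34, KDR and CDH5 (CD144) are among these markers and were used in the sort, so the sum cannot test the endothelial label independently. KDR was higher, at 4813 ± 133 CPM in ALA and 4115 ± 230 CPM in Ctrl libraries. CD34 was lower, at 813 ± 10.3 CPM in ALA and 1451 ± 40.8 CPM in Ctrl libraries. So was CDH5, at 556 ± 18.3 CPM in ALA and 864 ± 127 CPM in Ctrl libraries. Of all 10, 2 rose and 5 fell. Of 8 blood markers 2 were tested: LAPTM5, a lysosomal protein of blood cells, was at 244 ± 14.7 CPM in ALA and 290 ± 7.31 CPM in Ctrl libraries (called lower), and ITGA2B, a platelet integrin, at 2.47 ± 0.285 CPM in ALA and 0.660 ± 0.689 CPM in Ctrl libraries (called higher, edgeR adjusted p = 0.0421). SPN and PTPRC, which encode the blood surface proteins CD43 and CD45, and HBE1, an embryonic globin, had no count in any library. Of 7 hemogenic factors, all of them tested, 2 rose, 3 were lower and 2 did not pass. RUNX1 was 5.46-fold higher, at 14.4 ± 0.531 CPM in ALA and 2.63 ± 0.501 CPM in Ctrl libraries. GFI1 was 2.24-fold higher, at 5.99 ± 1.16 CPM in ALA and 2.66 ± 1.25 CPM in Ctrl libraries. MYB was 3.03-fold lower, at 2.83 ± 0.243 CPM in ALA and 8.58 ± 1.22 CPM in Ctrl libraries. LYL1 was 2.35-fold lower, at 0.624 ± 0.109 CPM in ALA and 1.47 ± 0.118 CPM in Ctrl libraries. LMO2 was 1.43-fold lower.

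The 10 genes did not move as a block. With lipoic acid TFB2M, TFB1M, POLG and LRPPRC rose, POLRMT, PPARGC1A and PPARGC1B fell, and TFAM, POLG2 and NRF1 did not pass the test (edgeR quasi-likelihood test, Benjamini-Hochberg adjusted p under 0.05 over 13780 genes). A large part of the transcriptome also differed, and these counts are read against it: 4 of 10 rose where 24.2% of all tested genes rose, and 3 of 10 fell where 23.3% fell. Either way 7 of 10 were called, against 47.4% of all tested genes and 48.7% of the 8615 tested genes whose mean level lay within the range of the 10, from 3.75 to 131 CPM. The median log2 fold change of the 10 was 0.13, beside -0.01 over all tested genes. The 10 passed the low-count filter, with counts of 74 to 6074 per library. In these bulk libraries fewer cells of a type and less RNA per cell cannot be told apart.

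**Figure D1:**
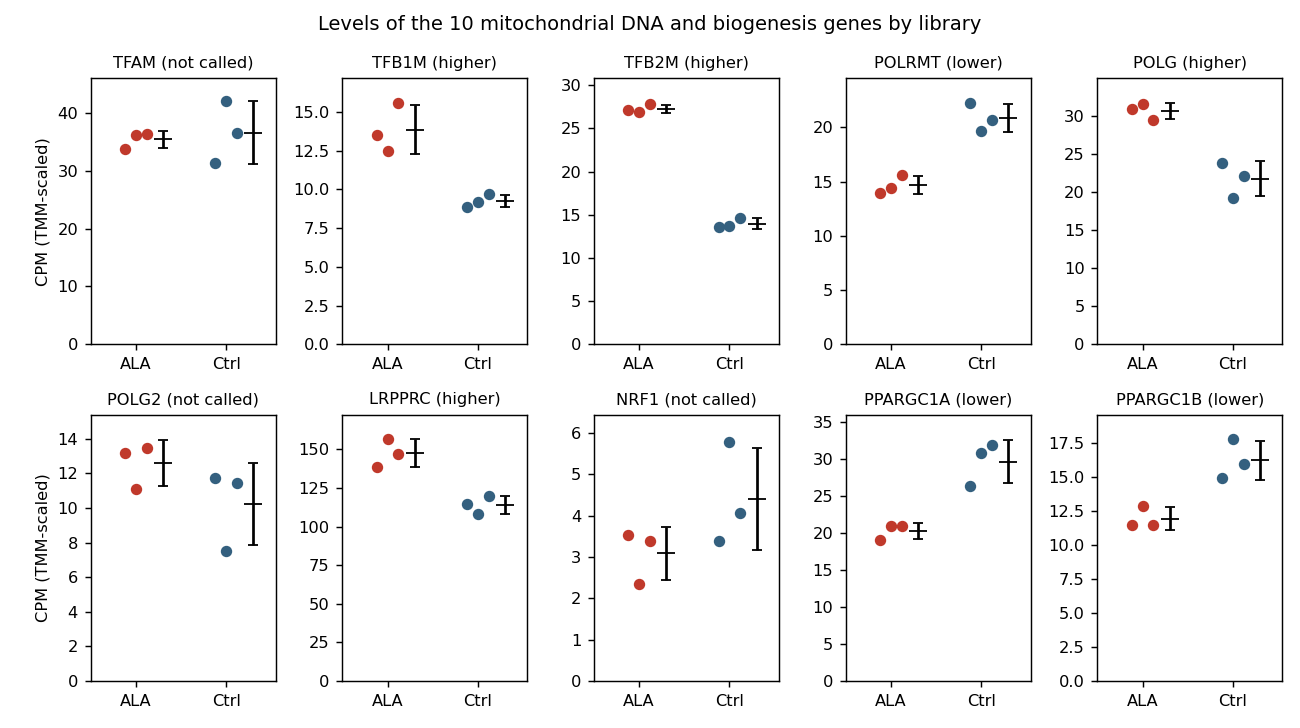
Level of each of the 10 genes in CPM on TMM-scaled library sizes (vertical axis, from 0, own scale for each gene), with 1 point for each of 3 ALA and 3 Ctrl libraries and the mean ± SD beside them. The ALA points lie above all Ctrl points for TFB1M, TFB2M, POLG and LRPPRC and below them for POLRMT, PPARGC1A and PPARGC1B.

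Of the transcription initiation proteins TFB2M rose, POLRMT fell and TFAM did not pass. TFB2M, which opens the promoter for the polymerase, lies on chromosome 1 (246540560 to 246566324, GRCh38, minus strand). It stood at 27.1, 26.9 and 27.8 CPM in ALA replicates 1 to 3, against 13.5, 13.7 and 14.7 CPM in Ctrl replicates 1 to 3. The groups were far apart relative to their spread, with 27.3 ± 0.463 CPM in ALA and 14.0 ± 0.601 CPM in Ctrl (SD, n = 3 each). TFB2M had the largest change of the 10, a 1.95-fold rise (log2 fold change 0.97, SE 0.09, edgeR adjusted p = 3.1e-05). It was called in all 17 other settings tried, at log2 fold changes of 0.90 to 1.01.

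POLRMT, the polymerase itself (chromosome 19, 617224 to 633604, minus strand), went the other way. Its level was 13.9, 14.4 and 15.6 CPM in ALA replicates 1 to 3, against 22.3, 19.7 and 20.7 CPM in Ctrl replicates 1 to 3. Every ALA library was below every Ctrl library, and the fitted log2 fold change was -0.51 (SE 0.10, 1.42-fold lower, edgeR adjusted p = 0.00275). The transcript of POLRMT is rich in G and C (66.3%), and with a trend in GC content and transcript length removed from each library the call was lost (log2 fold change -0.26, edgeR adjusted p = 0.0994).

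TFAM, which bends promoter DNA and coats the mitochondrial genome (chromosome 10, 58385022 to 58399221, plus strand), was not called. It had 33.8, 36.2 and 36.5 CPM in ALA replicates 1 to 3, against 31.3, 42.1 and 36.6 CPM in Ctrl replicates 1 to 3. The Ctrl libraries spanned the whole ALA range, so the groups overlapped. The log2 fold change was -0.05 with a 95% interval of -0.28 to 0.19 (edgeR adjusted p = 0.737), an interval that leaves out the uncorrected values of POLRMT and TFB2M. Without Ctrl replicate 2, the highest library, the sign turned (0.064, edgeR adjusted p = 0.562), and so it did in the 4 libraries of even counts (0.18, edgeR adjusted p = 0.174). Without ALA replicate 1 the TFAM value was near 0 (-0.0049), and without Ctrl replicate 1 it was -0.14 (edgeR adjusted p = 0.241). With the trend in GC content and length removed it was -0.23 (edgeR adjusted p = 0.16), close to the corrected value of POLRMT (-0.26), and neither was called. The annotation names the pseudogenes TFAMP1, TFAMP2 and POLRMTP1, and how reads with several alignments were counted is not given in the sources used here, so the levels of TFAM and POLRMT carry that uncertainty.

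TFB1M, the paralog of TFB2M that methylates the small ribosomal RNA of mitochondria (chromosome 6, 155257509 to 155314493, minus strand), also rose. Its level was 13.5, 12.5 and 15.6 CPM in ALA replicates 1 to 3, against 8.86, 9.21 and 9.67 CPM in Ctrl replicates 1 to 3. The groups did not overlap, as was the case for 59.1% of all tested genes, with the ALA group above for 30.4% and below for 28.8%. TFB1M was 1.50-fold higher (log2 fold change 0.58, SE 0.13, edgeR adjusted p = 0.00524). A share of 0.079 of its exons lies opposite exons of TIAM2, and strand use in counting is not given.

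The promoters of these 4 genes are shown because the genes act in 1 complex or are paralogs, yet differed in direction. Each window runs from 250 bases before to 50 bases after the gene start in RefSeq (GRCh38.p14), written 5′ to 3′ on the gene's strand. Capitals mark matches on either strand to CNTGCGC, a core of the NRF1 site, or to CGGAAG, the core of the ETS factor site, and neighbouring matches can overlap. The windows are chr1:246566212-246566511 for TFB2M, chr19:633488-633787 for POLRMT, chr10:58385160-58385459 for TFAM and chr6:155314435-155314734 for TFB1M.
TFB2M: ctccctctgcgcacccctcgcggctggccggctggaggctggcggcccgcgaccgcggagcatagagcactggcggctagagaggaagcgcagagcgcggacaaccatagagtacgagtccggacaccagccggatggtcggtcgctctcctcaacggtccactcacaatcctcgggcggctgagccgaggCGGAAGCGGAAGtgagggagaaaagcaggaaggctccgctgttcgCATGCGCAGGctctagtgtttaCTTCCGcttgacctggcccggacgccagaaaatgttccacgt
POLRMT: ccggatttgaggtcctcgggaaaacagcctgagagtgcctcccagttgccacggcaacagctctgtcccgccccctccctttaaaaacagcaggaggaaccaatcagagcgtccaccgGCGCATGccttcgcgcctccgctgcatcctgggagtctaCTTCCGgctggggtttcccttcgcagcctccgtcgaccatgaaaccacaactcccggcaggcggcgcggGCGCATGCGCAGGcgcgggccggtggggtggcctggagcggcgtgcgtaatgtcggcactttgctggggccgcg
TFAM: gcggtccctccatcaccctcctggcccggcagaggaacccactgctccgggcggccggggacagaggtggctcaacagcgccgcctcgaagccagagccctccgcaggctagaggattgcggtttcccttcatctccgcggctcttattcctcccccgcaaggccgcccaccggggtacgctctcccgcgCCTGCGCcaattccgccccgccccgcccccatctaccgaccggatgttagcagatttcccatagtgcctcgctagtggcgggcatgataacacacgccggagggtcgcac
TFB1M: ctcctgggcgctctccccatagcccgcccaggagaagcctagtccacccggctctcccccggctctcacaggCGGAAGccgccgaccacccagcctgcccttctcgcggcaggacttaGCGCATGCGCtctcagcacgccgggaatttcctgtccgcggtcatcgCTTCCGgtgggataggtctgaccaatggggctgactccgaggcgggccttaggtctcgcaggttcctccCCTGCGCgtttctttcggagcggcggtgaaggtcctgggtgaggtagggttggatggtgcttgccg

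RefSeq windows were matched for 9 of the 10 genes, all but NRF1, with 2 for PPARGC1A. The NRF1 core with A at its free base, CATGCGC, was present in the windows of TFB2M and TFB1M, which rose, of POLRMT, which fell, and of POLG2, against 4.43% of all 35116 RefSeq windows of the same length. POLRMT held it 3 times, TFB1M 2 times, and TFB2M and POLG2 1 time each, counting overlapping matches on both strands. The core with any base in that place was also present in TFAM, against 21.0% of all windows. The ETS core was present in TFB2M, TFB1M, POLRMT, POLG2 and LRPPRC, against 19.5% of all windows. The windows of POLG, PPARGC1A and PPARGC1B held none of these letters. The windows of both coactivators follow RefSeq starts away from the gene starts given below. For PPARGC1A, chr4:23881052-23881351 lies inside the gene bounds and chr4:24472856-24473155 outside them. For PPARGC1B, chr5:149771690-149771989 lies inside. Genes that rose were thus found both with and without these matches. Among genes that fell, POLRMT had matches, and those without were the coactivators, whose other starts were not searched. The matches describe the windows and do not show binding.

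Of the replication enzyme, the catalytic subunit rose and the processivity subunit did not pass. POLG (chromosome 15, 89305198 to 89334861, minus strand) had 30.9, 31.5 and 29.5 CPM in ALA replicates 1 to 3, against 23.8, 19.2 and 22.1 CPM in Ctrl replicates 1 to 3. The ALA libraries were all higher, by 1.41-fold (log2 fold change 0.50, SE 0.10, edgeR adjusted p = 0.00222), and the call was made in all 17 other settings. POLG shares 0.077 of its exons with FANCI on the opposite strand. POLG2 (chromosome 17, 64477785 to 64497036, minus strand) had 13.2, 11.1 and 13.5 CPM in ALA replicates 1 to 3, against 11.8, 7.48 and 11.5 CPM in Ctrl replicates 1 to 3. For POLG2 replicate 2 was lowest in both groups and the groups overlapped. The log2 fold change of POLG2 was 0.30 with a 95% interval of -0.11 to 0.70 (edgeR adjusted p = 0.201), which includes the value of POLG. It was 0.12 without Ctrl replicate 2, the lowest library, and 0.10 in the 4 libraries of even counts, neither of them called.

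LRPPRC, the RNA-binding protein that stabilises mitochondrial messenger RNAs, was the most abundant of the 10 in CPM and rose moderately. On chromosome 2 (43886508 to 43996005, minus strand), it had 139, 157 and 147 CPM in ALA replicates 1 to 3, against 114, 108 and 120 CPM in Ctrl replicates 1 to 3. The groups did not overlap, and the rise was 1.29-fold (log2 fold change 0.37, SE 0.07, edgeR adjusted p = 0.00163). Corrected for that same trend in GC content and length, LRPPRC did not pass (log2 fold change 0.20, edgeR adjusted p = 0.0857). That correction also moved the median log2 fold change of all tested genes from -0.01 to -0.08. SLIRP, its binding partner, named here for that reason after its values were seen, had 15.1 ± 1.93 CPM in ALA and 16.3 ± 1.83 CPM in Ctrl libraries (SD, n = 3 each) and was not called (edgeR adjusted p = 0.495).

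Both coactivators fell. PPARGC1A, the inducible coactivator of mitochondrial biogenesis (chromosome 4, 23755041 to 23904089, minus strand), had 19.0, 21.0 and 20.9 CPM in ALA replicates 1 to 3, against 26.3, 30.9 and 31.9 CPM in Ctrl replicates 1 to 3. The groups were separate, with a log2 fold change of -0.55 (SE 0.10, 1.46-fold lower, edgeR adjusted p = 0.00149), called in all 17 other settings. PPARGC1B, its close relative (chromosome 5, 149730298 to 149855022, plus strand), had 11.5, 12.9 and 11.5 CPM in ALA replicates 1 to 3, against 15.0, 17.8 and 16.0 CPM in Ctrl replicates 1 to 3. It was 1.36-fold lower (log2 fold change -0.44, SE 0.12, edgeR adjusted p = 0.0127). That call was lost without ALA replicate 1 (edgeR adjusted p = 0.0554), without ALA replicate 3 (0.0636) and in the 4 libraries of even counts (0.12), with the ALA libraries lower each time.

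NRF1, the nuclear factor that binds promoters of respiratory genes (chromosome 7, 129611714 to 129757082, plus strand), was the least abundant of the 10. It had 3.54, 2.34 and 3.38 CPM in ALA replicates 1 to 3, against 3.38, 5.79 and 4.06 CPM in Ctrl replicates 1 to 3. The groups overlapped, since Ctrl replicate 1 lay within the ALA range. The log2 fold change was -0.51, and its 95% interval ran from -1.12 to 0.10 (edgeR adjusted p = 0.149), so a fall of the size seen for the coactivators could not be told from no change at this depth (74 to 174 counts per library) and spread. The value depended on single libraries, at -0.26 without Ctrl replicate 2 and -0.34 without ALA replicate 2, and was -0.13 in the 4 libraries of even counts, none of them called.

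**Figure D2:**
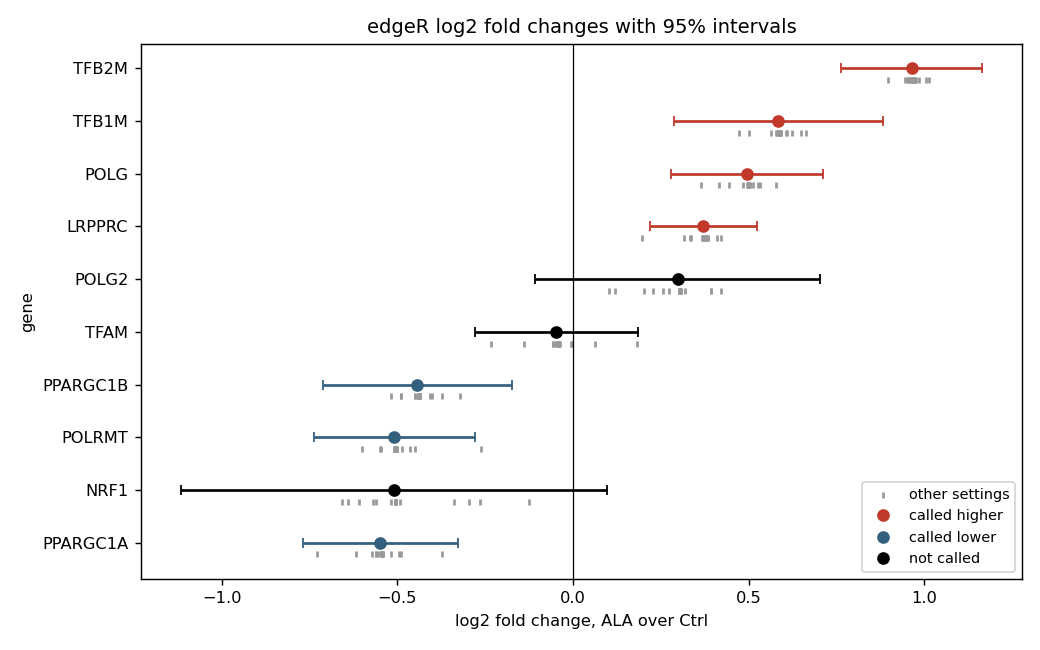
Fitted log2 fold change of each gene, ALA over Ctrl (horizontal axis), with its 95% interval (points and bars, coloured by call) and the values under the 17 other settings (grey ticks below each point). TFB2M stands at 0.97 and PPARGC1A at -0.55, and TFAM is the gene whose ticks lie on both sides of 0.

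Ratios within a library do not depend on the scaling factor of that library, and 4 pairs were compared. The log2 ratio of TFB2M to TFB1M counts was 1.00, 1.11 and 0.84 in ALA replicates 1 to 3, against 0.61, 0.58 and 0.60 in Ctrl replicates 1 to 3. The ratio was higher in every ALA library than in any Ctrl library, by 0.39 on average (exact two-sided permutation p = 0.1, the smallest that 3 against 3 allows). The ratio of TFAM to POLRMT was 1.28, 1.33 and 1.22 in ALA libraries, against 0.49, 1.10 and 0.82 in Ctrl libraries, a difference of 0.47 (exact permutation p = 0.1). All ALA libraries had more TFAM for each POLRMT count, and the difference ran from 0.31 to 0.62 when 1 library was left out. Such a ratio still carries differences in GC content and length between its genes: with that trend removed the fitted log2 fold changes of TFAM and POLRMT were -0.23 and -0.26, so they nearly coincided. The ratio of POLG2 to POLG averaged -1.29 ± 0.197 in ALA and -1.11 ± 0.221 in Ctrl libraries (SD, n = 3 each, exact permutation p = 0.4), and that of PPARGC1B to PPARGC1A -0.76 ± 0.092 in ALA and -0.87 ± 0.110 in Ctrl libraries (exact permutation p = 0.3). The groups overlapped for both of these pairs. With 4 comparisons in this family and no p below 0.1, none passed a threshold of 0.05, with or without adjustment.

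**Figure D3:**
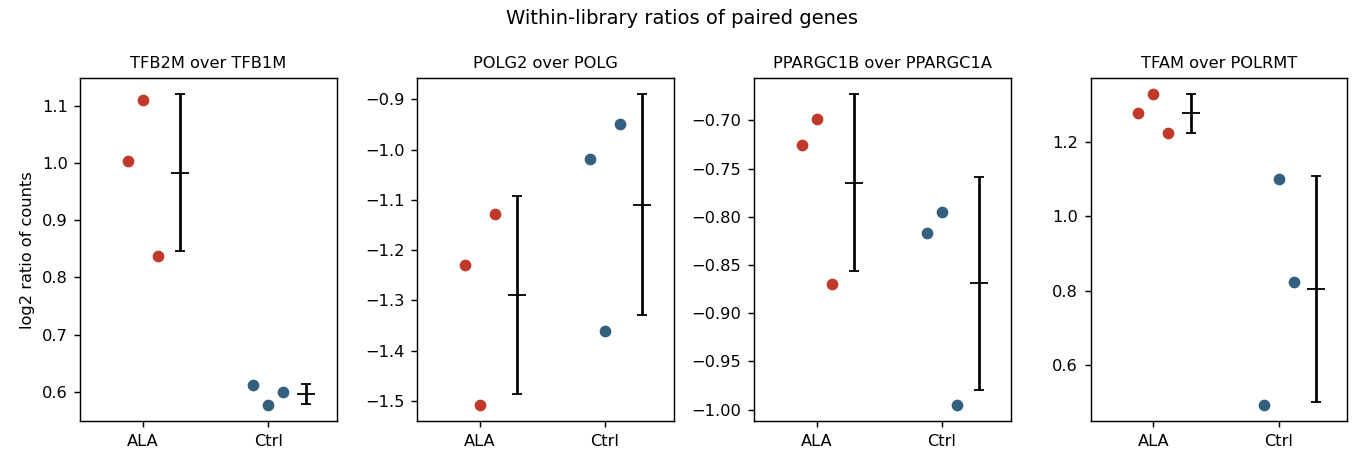
Log2 ratio of counts within each library for 4 pairs of genes (vertical axis, own scale for each pair), with 3 ALA and 3 Ctrl libraries as points and the mean ± SD beside them. The ALA points lie above the Ctrl points for TFB2M over TFB1M and for TFAM over POLRMT, and the groups overlap for the other pairs.

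Levels of different genes can be compared only per length, here CPM per kilobase of annotated exon. In ALA libraries LRPPRC (15.1 ± 0.938) and TFB2M (14.8 ± 0.251) led and did not differ beyond their spread, while in Ctrl libraries LRPPRC (11.7 ± 0.591) stood above TFB2M (7.56 ± 0.325). TFAM followed with 6.33 ± 0.259 in ALA and 6.54 ± 0.962 in Ctrl libraries, and in Ctrl libraries its range reached that of TFB2M. POLG (5.13 ± 0.175 in ALA, 3.63 ± 0.388 in Ctrl) and TFB1M (5.07 ± 0.575 in ALA, 3.38 ± 0.150 in Ctrl) were at like levels within each group. POLRMT was below POLG2 in ALA libraries (2.86 ± 0.167 and 3.72 ± 0.389) and above it in Ctrl libraries (4.07 ± 0.257 and 3.02 ± 0.705). The 3 regulators had the lowest means, with PPARGC1A at 1.87 ± 0.102 in ALA and 2.73 ± 0.272 in Ctrl, PPARGC1B at 0.928 ± 0.0641 in ALA and 1.26 ± 0.112 in Ctrl, and NRF1 at 0.749 ± 0.158 in ALA and 1.07 ± 0.300 in Ctrl libraries (SD, n = 3 each). In Ctrl libraries PPARGC1A and POLG2 did not differ beyond their spread. Exon length counts every annotated exon, so a gene with long rarely used exons appears lower. These levels were not corrected for GC content, which was 66.3% for POLRMT and 47.5% for POLG2. The change in order of that pair between groups carries that uncertainty.

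The transcripts that this machinery makes were measured in the same libraries. Genes of the mitochondrial genome took 5.02%, 4.39% and 4.98% of counts in ALA replicates 1 to 3, against 2.45%, 2.82% and 2.66% in Ctrl replicates 1 to 3 (exact two-sided permutation p = 0.1). The 2 ribosomal RNAs rose, MT-RNR1, the substrate of TFB1M, by 2.18-fold and MT-RNR2 by 2.21-fold. In the 16 other settings that kept them the adjusted p of the edgeR, DESeq2 or limma test was at most 0.000187. All 13 protein-coding genes rose, from 1.23-fold for MT-ND2 to 2.48-fold for MT-ND4L, though MT-ND2 was not called in 6 of 16 other settings, namely without ALA replicate 1 (edgeR adjusted p = 0.114) or 3 (0.109), without Ctrl replicate 1 (0.0611) or 3 (0.0716), with the replicate number as a block (0.0534) and corrected for GC content and length (0.241). Its log2 fold change was 0.30, beside 0.19 without Ctrl replicate 1 and 0.57 in the 4 libraries of even counts (edgeR adjusted p = 8.59e-05). In the same libraries TFB2M, TFB1M and LRPPRC were higher, POLRMT was lower and TFAM was not called. The calls of POLRMT and LRPPRC were lost after correction for GC content and length. Any link of these genes to the mitochondrial transcripts was not tested. The libraries were made from polyA RNA, and copies of mitochondrial sequence in the nuclear genome can share such reads.

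**Figure D4:**
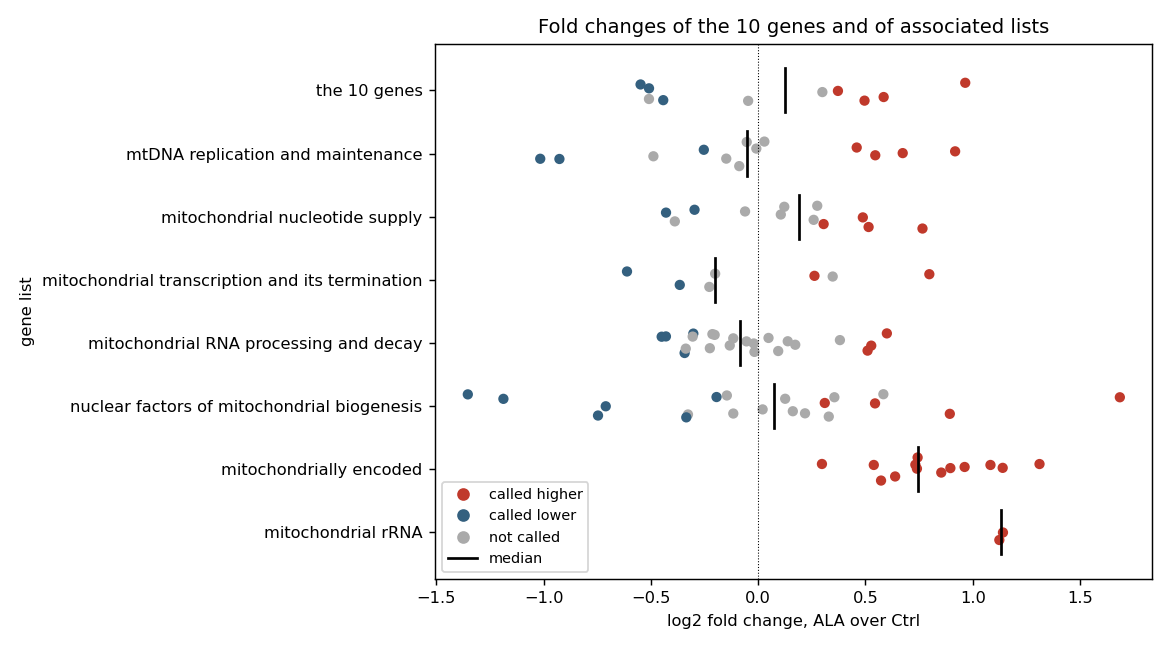
Log2 fold change, ALA over Ctrl (horizontal axis), of each tested gene in the list of 10 and in 7 associated lists (rows, jittered vertically), coloured by call, with a black bar at each median. The 2 lists of mitochondrially encoded genes lie wholly above 0, and the nuclear lists spread to both sides.

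Nuclear partners of the 10 also moved in both directions, with list medians of -0.20 to 0.19 beside -0.01 for all tested genes. Among 13 genes of mitochondrial DNA replication and maintenance 4 rose and 3 fell (median log2 fold change -0.05), close to the background shares of 24.2% and 23.3%. TOP1MT, a topoisomerase of mitochondria, stood at 10.4 ± 0.416 CPM in ALA and 5.52 ± 0.560 CPM in Ctrl libraries (1.89-fold higher, edgeR adjusted p = 0.000936). MGME1, a nuclease that trims ends during replication, was 1.60-fold higher and TOP3A, which separates daughter molecules, 1.37-fold higher. EXOG, a mitochondrial exonuclease of repair, was lower at 6.78 ± 1.28 CPM in ALA and 13.7 ± 2.48 CPM in Ctrl libraries (2.02-fold lower). The count of 3 falls was 1 with the replicate number as a block, without ALA replicate 2 or 3, without Ctrl replicate 2 and in the 4 libraries of even counts.

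Of 12 genes that supply nucleotides to mitochondria 4 rose and 2 fell (median 0.19). SUCLG2, the GTP-forming subunit of succinyl-CoA ligase, rose 1.70-fold while SUCLG1, its shared alpha subunit, was 1.23-fold lower. SLC25A36, a pyrimidine nucleotide carrier, rose 1.43-fold and SLC25A4, an ADP and ATP carrier, was 1.35-fold lower. Of 7 further genes of mitochondrial transcription and its termination 2 rose and 2 fell (median -0.20), namely MTERF3 (1.74-fold higher), a repressor of mitochondrial transcription in mice, NSUN4 (1.20-fold higher), which acts in assembly of the mitochondrial ribosome, MTERF1 (1.29-fold lower), a termination factor, and MRPL12 (1.53-fold lower), a ribosomal protein also reported to bind POLRMT. Calls of NSUN4 and MTERF1 were lost in 6 and 5 of 17 other settings, including most fits without 1 library: NSUN4 without ALA replicates 2 (edgeR adjusted p = 0.109) or 3 (0.0561) and Ctrl replicates 1 (0.0768) or 3 (0.0638), MTERF1 without ALA replicates 1 (0.101) or 2 (0.148) and Ctrl replicates 1 (0.11) or 3 (0.133). In the 4 libraries of even counts the adjusted p was 0.058 for NSUN4 and 0.0728 for MTERF1, and NSUN4 did not pass after correction for GC content and length (0.475). A same-strand gene model covers 0.682 of the exons of MRPL12, which did not pass after correction for GC content and length (edgeR adjusted p = 0.206).

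Of 22 genes of mitochondrial RNA processing and decay 3 rose and 4 fell (median -0.09), both shares below the background. PNPT1, a nuclease of RNA decay, was at 69.7 ± 2.14 CPM in ALA and 48.4 ± 3.15 CPM in Ctrl libraries (1.44-fold higher, edgeR adjusted p = 0.000273). FASTKD3 rose 1.52-fold, while its relative FASTKD2, which binds mitochondrial transcripts, was 1.35-fold lower and ERAL1, a chaperone of the small ribosomal RNA, 1.37-fold lower.

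Among 20 tested nuclear factors around the coactivators 4 rose and 6 fell (median 0.07). MYC, a growth factor-induced regulator, stood at 41.2 ± 1.13 CPM in ALA and 12.8 ± 1.36 CPM in Ctrl libraries (3.22-fold higher, edgeR adjusted p = 1.52e-06). SIRT1, a deacetylase that acts on PPARGC1A protein, rose 1.86-fold and PPARA, a nuclear receptor partner of PPARGC1A, 1.46-fold. PPARG, the receptor with which PPARGC1A was first identified, stood at 9.49 ± 0.818 CPM in ALA and 21.6 ± 0.336 CPM in Ctrl libraries (2.28-fold lower, edgeR adjusted p = 3.14e-05). The count of 6 falls was 3 without ALA replicate 1 and 2 in the 4 libraries of even counts.

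Markers of other cell types differed between the same groups. Of 8 tested endoderm and hepatic markers 7 rose, with summed levels over 10 genes of 148 to 220 CPM in ALA and 27.5 to 40.3 CPM in Ctrl libraries, while ALB, the defining hepatic gene, was at 0.260 ± 0.295 CPM in ALA and 0.0205 ± 0.0355 CPM in Ctrl libraries. Of 6 tested epithelial markers 5 rose (summed levels over 7 genes of 409 to 474 CPM in ALA and 226 to 249 CPM in Ctrl libraries), while EPCAM was not called. The sum was mostly KRT8 (246 ± 23.6 CPM in ALA, 108 ± 9.77 CPM in Ctrl) and KRT18 (135 ± 13.4 CPM in ALA, 110 ± 8.48 CPM in Ctrl). CDH1, which encodes E-cadherin, was at 11.0 ± 1.33 CPM in ALA and 0.0111 ± 0.0192 CPM in Ctrl libraries. Of 9 mesenchymal markers 5 fell, with summed levels that overlapped (1440 to 1984 CPM in ALA, 1890 to 2527 CPM in Ctrl). Cardiac markers, from a tissue rich in PPARGC1A, summed to 8.75 to 9.91 CPM over 7 genes in ALA and 10.1 to 11.0 CPM in Ctrl libraries. Most of that sum was NKX2-5, which was not called. Of 3 tested cardiac markers 1 rose (ACTN2, 2.05-fold) and 1 fell (TNNT2, 7.46-fold lower). TNNT2 was at 0.186 ± 0.147 CPM in ALA and 1.44 ± 0.216 CPM in Ctrl libraries. Of 3 tested pluripotency markers 2 rose, LIN28A 1.68-fold and ZFP42 1.91-fold, while POU5F1 and SOX2 had no count in any library. Summed levels over 6 genes were 89.4 to 91.3 CPM in ALA and 79.4 to 83.8 CPM in Ctrl libraries. DPPA4 made up most of this sum, at 62.3 ± 1.61 CPM in ALA and 65.3 ± 1.01 CPM in Ctrl libraries. It was not called, and every ALA library was below every Ctrl library. Summed levels of the 8 blood markers, nearly all from LAPTM5, were 236 to 263 CPM in ALA and 284 to 296 CPM in Ctrl libraries. HBZ and CD33 were not tested. HBZ had 4, 10 and 14 counts in ALA replicates 1 to 3 and none in Ctrl libraries. CD33 had 40, 10 and 8 counts in Ctrl replicates 1 to 3 and none in ALA libraries. The 7 hemogenic factors, mostly LMO2 and TAL1, summed to 281 to 298 CPM in ALA and 326 to 347 CPM in Ctrl libraries. Of 10 endothelial markers 2 rose and 5 fell. Whether cells of these other types were present, or had a part in the changes of the 10 genes, was not tested.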

How the data were processed

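The authors deposited 1 table of unnormalised read counts by gene symbol, with 6 columns. HISAT2, featureCounts and DESeq2 with hg38 are named in the submitters' processing notes; their versions and options, and the annotation, are not given in the sources used here. No other sample column was present (0 left out).

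Counts were analysed in R 4.3.3 with edgeR 4.0.16 (filterByExpr by group, TMM scaling, quasi-likelihood F test, group as the only term, Benjamini-Hochberg over all 13780 tested genes). DESeq2 1.42.0 and limma 3.58.1 served as alternatives, with other scalings and filters, each library left out, counts halved where even, the 4 libraries of even counts alone, mitochondrial genes removed, and a GC content and length trend (loess on GENCODE v29) removed. CPM used TMM-scaled totals. Fold changes are ALA over Ctrl, and intervals of fold changes come from the fitted SE. Ratios and shares had exact two-sided permutation tests. The cDNA was amplified without stated molecular barcodes, so low counts are less precise than their size.

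The 10 genes and the lists were chosen with earlier results of these data known. All 10 genes are named, with up to 4 called genes of lowest p in each associated list, the mitochondrially encoded genes of lowest and highest fold, and markers by list. TWNK was not analysed here. Promoter windows came from RefSeq (GRCh38.p14), matched by symbol for 9 of the 10 genes.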

Additional observations from a re-analysis of the deposited data

How the results depend on the processing

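Across 17 other settings, 163 of the 170 values of the 10 genes had the direction and call given above. The exceptions were TFAM, never called, whose log2 fold change was 0.064 without Ctrl replicate 2 and 0.18 in the 4 libraries of even counts (-0.14 to 0.064 over the fits without 1 library); PPARGC1B, whose call was lost in the even-count libraries (-0.32) and in 2 of the fits without 1 library (-0.49 to -0.37 over all 6); and POLRMT (-0.26) and LRPPRC (0.20), whose calls were lost after correction for GC content and length. That correction also moved the median of the 10 to -0.018 and the median of all tested genes to -0.08, and left 2 called rises in the nucleotide supply list and 1 in the transcription and termination list. The causes were not tested.

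In the 4 libraries of even counts 1 gene of the replication list fell, 1 of the termination list rose and 2 nuclear factors fell. Over fits without 1 library, calls ran from 1 to 3 falls in the replication list, 1 to 2 rises and 1 to 4 falls in the termination list and 3 to 6 falls among nuclear factors. Same-numbered libraries of the groups deviated together with correlations of 0.0996, 0.0852 and 0.0975, each the highest for its library. Libraries of different number had correlations of -0.0759 to -0.00325. Deviations were taken from the mean of the 3 libraries of a group, so the correlations of any library nearly cancel. Negative values for different numbers thus follow from the positive ones and are not separate evidence of pairing. The positive values are in the direction that pairing would give, though they are small. The labels state no pairing, so the main fit did not use the numbers as pairs. With the replicate number as a block 3354 genes rose and 3203 fell, against 3329 and 3205 without it, the replication list had 1 fall, and no call of the 10 genes changed. Of 452 values of other named genes 434 were unchanged in call and direction and 18 lost their call. NRF1, at 74 to 174 counts, had the widest interval of the 10.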
